A study of Rattus norvegicus with 24 samples.

Results

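MicroRNAs (miRs) were profiled in rat insulin-producing INS1 cells after 24 h with or without pro-inflammatory cytokines, and the 24h_Cyt arrays (n = 3) were compared with the 24h_Ctrl arrays (n = 3). These 6 arrays were selected by the group named in their titles, out of 24 arrays in 8 groups of 3. INS1 is a β-cell line derived from a rat insulinoma, so a clonal tumour line stands in for the β-cell here. The 24h_Cyt cells received 150 pg/ml IL-1β together with 0.1 ng/ml IFN-γ for 24 h, and the 24h_Ctrl cells were cultured for the same time without cytokines. Neither group received Givinostat, the lysine deacetylase inhibitor used in other arms of the study. The comparison addresses which miRs of a β-cell line change during a day of cytokine exposure. The series describes the 3 arrays of a group as technical replicates, so the p-values may measure technical spread only.

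A miR is a short RNA that guides an Argonaute protein to messenger RNAs, mostly by pairing of its seed, bases 2 to 8, with their 3′ untranslated regions. MiRs that share a seed form a family with overlapping targets, and miRs transcribed from 1 genomic cluster can belong to different families. In β-cells, IL-1β activates the NF-κB pathway, which is known to induce miR-146 genes, and together with IFN-γ it leads to nitric oxide production and apoptosis as late outcomes.

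Mature sequences from RefSeq (rat assembly GRCr8) were matched by name for 684 of the 758 miRs on the array, and for 29 of the 31 miRs called different below. The sequences that follow are those of the families and clusters described below, written 5′ to 3′ with the seed in capitals. The 3 members of the miR-29 family share 1 seed, and miR-29a-3p and miR-29c-3p differ at 1 of 22 bases.
miR-29a-3p: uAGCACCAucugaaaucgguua
miR-29b-3p: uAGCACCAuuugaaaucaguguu
miR-29c-3p: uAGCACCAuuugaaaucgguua
The miR-146 pair, which is known to target adaptors of IL-1 receptor signalling, differs at 2 of the first 22 bases, and the miR-101 pair at 1 of 21 bases.
miR-146a-5p: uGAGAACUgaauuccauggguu
miR-146b-5p: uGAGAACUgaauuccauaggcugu
miR-101a-3p: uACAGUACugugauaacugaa
miR-101b-3p: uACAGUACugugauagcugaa
In the let-7 family, let-7b-5p and let-7c-5p differ at 1 of 22 bases, as do let-7a-5p and let-7c-5p, and let-7b-5p and let-7f-5p differ at 3. How far the probes of such near-identical members hybridize to each other was not tested.
let-7a-5p: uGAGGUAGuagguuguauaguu
let-7b-5p: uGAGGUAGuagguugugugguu
let-7c-5p: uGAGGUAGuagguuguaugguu
let-7f-5p: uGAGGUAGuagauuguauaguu
The miR-30 seed is shared by miR-384-5p, whose remaining bases differ.
miR-30c-5p: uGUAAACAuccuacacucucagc
miR-30e-5p: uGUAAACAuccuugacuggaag
miR-384-5p: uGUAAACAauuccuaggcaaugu
The next pair shares a seed and a genomic cluster and had log2 fold changes of opposite sign, of which that of miR-93-5p passed the test.
miR-93-5p: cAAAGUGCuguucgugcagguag
miR-106b-5p: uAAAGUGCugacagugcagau
The seeds of miR-96-5p, miR-182 and miR-183-5p, known as products of 1 cluster, are alike but not the same.
miR-96-5p: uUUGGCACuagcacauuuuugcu
miR-182: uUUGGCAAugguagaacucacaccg
miR-183-5p: uAUGGCACugguagaauucacu
The 2 arms of miR-129 and the other called miRs with large changes had unrelated seeds.
miR-129-5p: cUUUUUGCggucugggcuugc
miR-129-2-3p: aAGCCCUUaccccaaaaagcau
miR-494-3p: uGAAACAUacacgggaaaccucu
miR-324-3p: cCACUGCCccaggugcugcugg
miR-21-5p: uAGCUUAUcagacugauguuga

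The signal of a miR was taken as the quantile-normalized log2 signal, averaged over its 16 spots on an array. A miR is called detected on an array where the scanner software marked at least 8 of these 16 spots as standing well above background. From 134 to 150 miRs were detected per 24h_Ctrl array, and 176 to 211 per 24h_Cyt array. The 24h_Cyt arrays were also brighter, with a 75th percentile of the background-subtracted signal of 596 to 1003 against 271 to 347 on the 24h_Ctrl arrays. All 3 24h_Ctrl arrays lay on slide 4, 24h_Cyt replicates 1 and 2 lay on slide 1 and replicate 3 on slide 2, so that no slide held both groups and no within-slide value can be given. Slide 1 also held 6h_Giv_Ctrl replicate 1, and its 3 files, unlike the others, carry the label of another project. Over these 6 arrays, slide, brightness and cytokines cannot be told apart. The cell label was checked against miRs of islets and of other tissues. Of 6 islet miRs, miR-375-3p, miR-7a-5p and miR-204-5p were detected on all 6 arrays and 1 on none. Of further miRs listed for β-cells, miR-182 and miR-183-5p were detected on all 6 arrays and miR-200b-3p on none. Liver miR-122-5p and all 6 blood cell miRs examined were detected on none. Of 7 muscle miRs, 5 were detected on none, miR-1-3p on 2 24h_Cyt arrays and miR-206-3p on all 6.

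After 24 h of cytokines, 31 of 758 miRs (4.09%) differed from control, 20 higher and 11 lower, by more than 0.1375 on the log2 scale (1.1-fold) with a Benjamini-Hochberg adjusted p below 0.05 in limma. MiR-29b-3p was 2.06-fold higher, and the other members of its family, miR-29a-3p and miR-29c-3p, 1.69-fold and 1.64-fold. MiR-146b-5p, miR-96-5p, miR-21-5p, miR-598-3p, miR-153-3p and miR-30b-5p rose as well, from 1.71-fold down to 1.38-fold. The largest decreases were those of miR-129-5p, to 0.538 of the control signal, miR-494-3p, to 0.645, miR-324-3p, to 0.717, and let-7b-5p, to 0.741. Of the 132 miRs detected on all 6 arrays, 12 were called higher and 9 lower (15.9% in all), while 54 had a positive and 78 a negative log2 fold change, with a median of -0.05. The RNA came from whole cultures, so a change in each cell and a change in the mix of surviving cells cannot be told apart. The quantile step sets every array to the same distribution, so each change is relative to the other miRs. Without it 173 miRs were called, all of them higher, and the median log2 fold change of the 132 miRs was 0.80. The split of higher and lower calls was 18 and 657 when arrays were centred on the median of the detected miRs, and 4 and 6 when background-subtracted signals were scaled to the 75th percentile of all miRs. With slide as a fixed block only miR-146a-5p was called, although all 31 log2 fold changes kept their sign and 30 of them at least 0.5 of their size. That fit joins slide 4 to slides 1 and 2 only through the group 6h_Cyt (6 h of cytokines). Replicate 1 of 6h_Cyt lay on slide 4 and replicates 2 and 3 on slide 2. The kept signs therefore do not show that slide was accounted for. With the 3 arrays of slide 1 left out, miR-146a-5p, miR-3584-5p and miR-762 were called, in a fit that rests on 24h_Cyt replicate 3 alone and assumes that it varies like the other groups. With each of the 6 arrays left out in turn, 11 of the 31 miRs were called every time, of which miR-29a-3p, miR-29b-3p, miR-93-5p, miR-129-5p, miR-182 and miR-494-3p were detected on all 6 arrays. Let-7c-5p and miR-598-3p were called in none of these 6 fits and the other 18 in some. The authors' pooled correlation over spots left 11 of the 31 uncalled, among them miR-93-5p, miR-182 and miR-494-3p.

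All 31 called miRs had 24h_Cyt values that did not overlap with the 24h_Ctrl values, as did 278 of all 758 miRs (36.7%). Among the 132 miRs detected on all 6 arrays, 60 had no overlap, so a lack of overlap is common. Of the 31, 10, written with an asterisk in the plot of the called miRs by array, were not detected on all 6 arrays, and 5 of these (miR-370-3p, miR-877, miR-762, miR-137-3p and miR-223-3p) were detected on none of the 6 arrays. No fold is given for the latter, whose log2 fold changes lay between -0.24 and 0.19. The spread between the 3 arrays of a group was small beside the larger changes, with a median SD over the 132 miRs of 0.11 log2 units in 24h_Ctrl and 0.09 in 24h_Cyt.

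**Figure D1:**
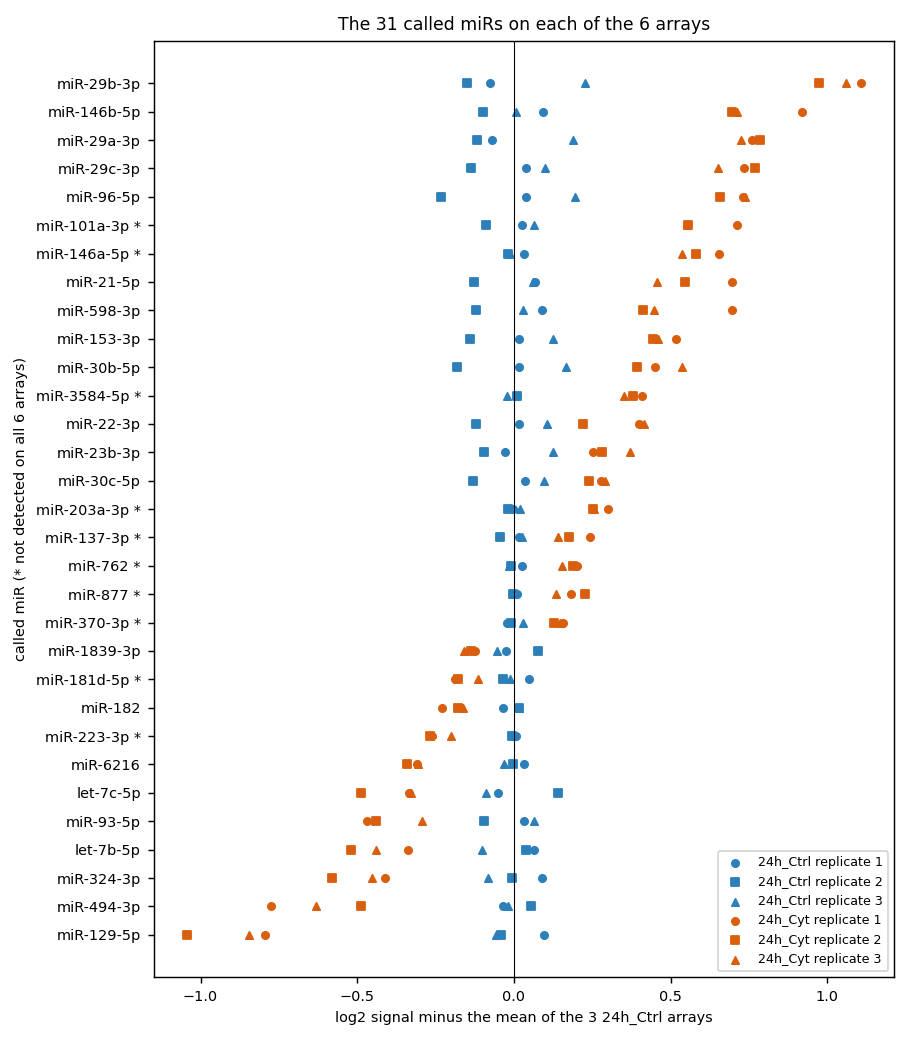
Log2 signal of each of the 31 called miRs (rows) on each array, minus the mean of the 3 24h_Ctrl arrays (horizontal axis), with blue points for 24h_Ctrl and orange points for 24h_Cyt and 1 symbol per replicate. In every row the orange points lie apart from the blue points, from miR-129-5p at the bottom (-0.89) to miR-29b-3p at the top (1.05).

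The miR-29 family, known for its repression of collagen and other matrix genes and present in β-cells, had the highest median of the seed groups with more than 1 member detected on all 6 arrays. MiR-29b-3p had log2 signals of 9.39, 9.32 and 9.70 on the 24h_Ctrl arrays and 10.57, 10.44 and 10.53 on the 24h_Cyt arrays, a log2 fold change of 1.05 (SE 0.16, adjusted p = 0.000533). The groups were 0.74 log2 units apart at their nearest arrays, and replicate 3 was the highest control. MiR-29a-3p went from 9.20, 9.15 and 9.46 to 10.03, 10.06 and 9.99 (log2 fold change 0.76, SE 0.15, adjusted p = 0.00537). MiR-29c-3p went from 8.48, 8.30 and 8.54 to 9.17, 9.21 and 9.09 (0.72, SE 0.19, adjusted p = 0.0284). All 3 members of the family on the array thus rose, without overlap between groups, which also held for 60 of the 132 miRs detected on all 6 arrays. Their median log2 fold change was 0.76, beside -0.01 over all 758 miRs and -0.05 over the 132 miRs detected on all 6 arrays. On background-subtracted signals the folds were 1.96 for miR-29b-3p, 1.67 for miR-29a-3p and 1.83 for miR-29c-3p. With array brightness as a covariate the 3 values fell to 0.62, 0.34 and 0.15 and none was called.

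The miR-146 seed group, the negative-feedback miRs of IL-1 receptor and Toll-like receptor signalling, rose in both members. MiR-146b-5p had signals of 6.82, 6.63 and 6.73 in 24h_Ctrl and 7.65, 7.43 and 7.44 in 24h_Cyt, a log2 fold change of 0.78 (SE 0.18, adjusted p = 0.0175). With array brightness as a covariate the value of miR-146b-5p fell to 0.17, and its call was lost in 3 of the 6 fits with 1 array left out. MiR-146a-5p went from 5.49, 5.44 and 5.44 to 6.11, 6.04 and 5.99, and its log2 fold change of 0.59 (SE 0.03) had the lowest adjusted p of all miRs (5.09e-10). It was detected on none of the control arrays and on all 3 cytokine arrays, so that its change is only bounded, at least 1.05-fold. This bound sets the mean of the cytokine arrays against the dimmest detected miR on each control array, or against miR-146a-5p itself if brighter there. On the background-subtracted scale miR-146a-5p was at the floor of 4.44 on all 3 control arrays and at 20.1, 22.8 and 19.5 on the cytokine arrays. It was the miR called under slide as a block, under array brightness as a covariate and without slide 1 alike.

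Among the 7 miRs listed as responsive to NF-κB, 3 were called, all higher (2.64% of all miRs were called higher). Beside the miR-146 pair this was miR-21-5p, a miR induced in many inflamed and proliferating tissues, with 7.06, 6.87 and 7.05 in 24h_Ctrl and 7.69, 7.54 and 7.45 in 24h_Cyt (log2 fold change 0.57, SE 0.15, adjusted p = 0.0360). Its groups did not overlap, but with array brightness as a covariate its value was -0.05. MiR-155-5p, the macrophage and lymphocyte miR of this list, was detected on no array (log2 fold change 0.00). MiR-132-3p and miR-212-3p, a CREB-induced pair of 1 seed and 1 cluster, both had a log2 fold change of -0.25 without overlap between groups and did not pass the test (adjusted p = 0.382 for both). MiR-9a-5p, with 0.12, was detected on 1 cytokine array. The median of the list over all 7 miRs was 0.12.

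The let-7 seed group, 9 miRs known as repressors of growth and of cell cycle genes, lay on the other side, with 2 members called lower (1.45% of all miRs were called lower). Let-7b-5p had signals of 10.60, 10.58 and 10.43 in 24h_Ctrl and 10.20, 10.02 and 10.10 in 24h_Cyt (log2 fold change -0.43, SE 0.10, adjusted p = 0.0136). Let-7c-5p went from 10.28, 10.48 and 10.25 to 9.999, 9.85 and 10.01 (-0.38, SE 0.11, adjusted p = 0.0449). Both groups of arrays stood apart for these 2 members. The call of let-7c-5p was lost with any 1 of the 6 arrays left out (adjusted p of 0.0521 to 0.184), with a pooled correlation over spots (0.239), with spot medians or the deposited table (0.0729 for both) and with normexp correction (0.0502). Let-7e-5p had a change as large, from 9.56, 9.64 and 9.49 to 9.24, 9.01 and 9.14 (-0.43), with an adjusted p of 0.0716. The values of let-7d-5p (-0.25), miR-98-5p (-0.24), let-7a-5p (-0.15), let-7i-5p (-0.14) and let-7g-5p (-0.12) were negative and that of let-7f-5p (0.03) was not. The median of the 9 members was -0.24, and all 9 were detected on all 6 arrays. Without normalization between arrays all members were brighter after cytokines, and relative to the median shift of 0.80 the values of let-7b-5p and let-7c-5p stayed negative (-0.27 and -0.18) while let-7g-5p, let-7i-5p and miR-98-5p joined let-7f-5p on the positive side. Under slide as a block the values of let-7b-5p and let-7c-5p were -0.65 and -0.56, in the fit that joins the slides of the 2 groups only through 6h_Cyt.

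**Figure D2:**
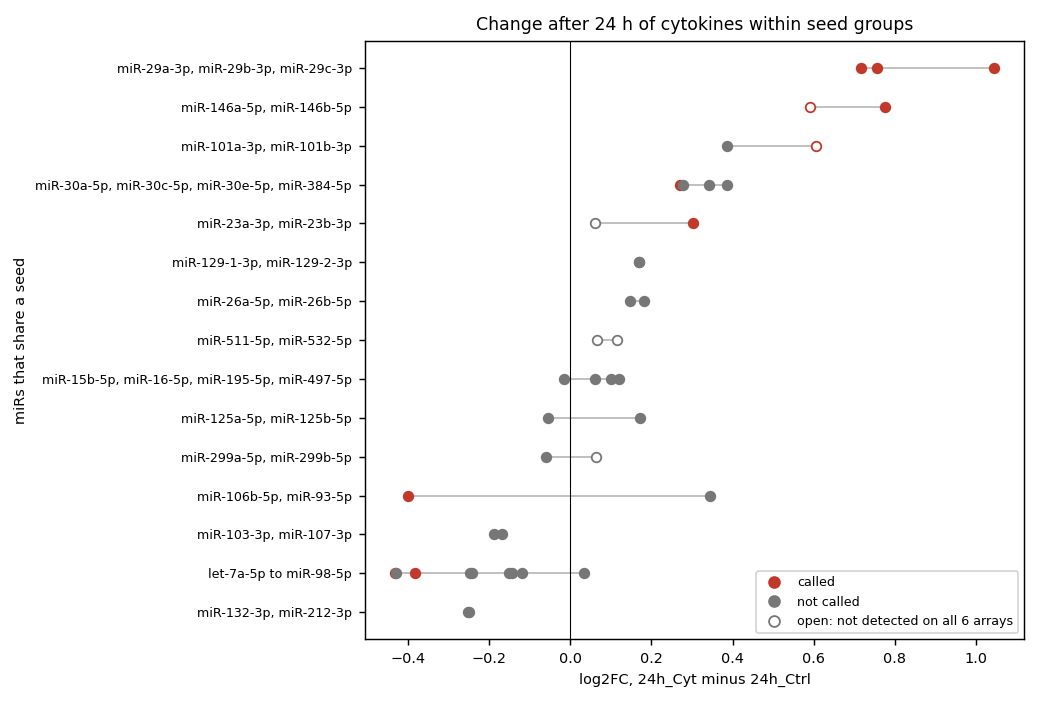
Log2 fold change (horizontal axis) of each miR in the 15 seed groups with at least 2 members detected throughout a group, ordered by their median. The miR-29 group lies between 0.72 and 1.05 and the let-7 group between -0.43 and 0.03, and miR-93-5p and miR-106b-5p lie on opposite sides of 0.

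The 5 members of the miR-30 family, abundant in differentiated epithelia and islets, had positive changes under quantile normalization, on background-subtracted signals and, relative to the median shift, without normalization. With array brightness as a covariate 4 of the 5 were positive, with a median of 0.12. Of the 4 miRs matched to the miR-30 seed (miR-30a-5p, miR-30c-5p, miR-30e-5p and miR-384-5p), 2 were then positive, with a median of -0.02. MiR-30b-5p rose from 7.29, 7.09 and 7.44 to 7.72, 7.66 and 7.81 (log2 fold change 0.46, SE 0.10, adjusted p = 0.00957). MiR-30c-5p rose from 6.58, 6.42 and 6.64 to 6.83, 6.79 and 6.84 (0.27, SE 0.07, adjusted p = 0.0183). Neither miR overlapped between the groups, and the other members, miR-30e-5p (0.34), miR-30a-5p (0.28) and miR-30d-5p (0.06), did not pass the test. MiR-384-5p, which carries the miR-30 seed, had a log2 fold change of 0.39 (adjusted p = 0.123). No RefSeq sequence was matched to miR-30b-5p.

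MiR-101a-3p, a repressor of the methyltransferase Ezh2, rose from 5.94, 5.82 and 5.98 to 6.62, 6.47 and 6.46 (log2 fold change 0.61, SE 0.14, adjusted p = 0.0175). It was detected on none of the control arrays and on all 3 cytokine arrays, which bounds the change to at least 1.45-fold. Its paralog miR-101b-3p had values of 6.63, 6.41 and 6.67 in control and 7.07, 6.87 and 6.93 after cytokines, without overlap, and its change of 0.39 (SE 0.17) missed the threshold (adjusted p = 0.177). In the seed group of miR-93-5p and miR-106b-5p, members of the miR-17 family of cell cycle regulators, miR-93-5p fell from 9.21, 9.08 and 9.24 to 8.71, 8.73 and 8.88 (-0.40, SE 0.07, adjusted p = 0.00208). MiR-106b-5p had a positive change of 0.34 (SE 0.13, adjusted p = 0.118), also without overlap between groups. The 2 miRs with this seed that were bright enough to be measured thus lay on opposite sides, a split that held on background-subtracted signals (0.711 and 1.25 of the control signal).

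The seed groups with no member called spanned a narrower range. In the miR-15/16 seed group of apoptosis and cell cycle regulators, 4 of 5 members were detected on all 6 arrays and had changes between -0.02 (miR-497-5p) and 0.12 (miR-195-5p). The values were 0.15 and 0.18 for miR-26a-5p and miR-26b-5p, known as supporters of insulin expression, and -0.19 and -0.17 for miR-103-3p and miR-107-3p, which are linked to insulin sensitivity. The values of the latter pair turned positive, relative to the median shift, without normalization. MiR-125b-5p had 0.17 and miR-125a-5p -0.06. MiR-511-5p and miR-532-5p (0.07 and 0.12) and miR-299a-5p and miR-299b-5p (-0.06 and 0.06) were groups with members near background. In the miR-23 group, miR-23b-3p was called (below) and miR-23a-3p, near background in control, had 0.06.

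Positions within 10 kb of each other in the annotation of the array (rat build rn4), given for 488 miRs, defined 14 clusters with at least 2 members detected throughout a group and at least 2 hairpins. Positions within 150 bases of each other were counted as 1 hairpin, which left out such close neighbours as miR-15b-5p and miR-16-5p, miR-192-5p and miR-194-5p, and miR-96-5p and miR-183-5p. MiR-29b-3p is placed in 2 of them, with miR-29a-3p at chr4:58107776-58108211 and with miR-29c-3p at chr13:110967536-110968122, and the mature miR does not show from which locus it came. All 3 guide arms of these clusters rose. Let-7c-5p and let-7b-5p lie at chr7:123700806-123701286 and were the 2 let-7 members called lower. Let-7c-5p is also placed on chromosome 11, so that its locus of origin does not show either. The other let-7 clusters, with let-7a-5p, let-7f-5p and let-7d-5p at chr17:22119781-22121982 and let-7f-5p and miR-98-5p at chrX:41376951-41377639, had no member called. MiR-30c-5p and miR-30e-5p at chr5:141362141-141365194 had 0.27 and 0.34.

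Members of 1 cluster also differed in sign. At chr12:17607991-17608454, a stretch of 0.46 kb, miR-93-5p fell while miR-106b-5p had 0.34 and miR-25-3p 0.07. At chr17:7350981-7351765, miR-23b-3p, which acts in NF-κB and TGF-β signalling, rose from 10.22, 10.15 and 10.37 to 10.50, 10.53 and 10.62 (log2 fold change 0.30, SE 0.07, adjusted p = 0.0108). The groups did not overlap, and on background-subtracted signals the fold was 1.06 and miR-23b-3p was not called. Its neighbours miR-27b-3p and miR-24-3p had 0.17 and -0.12, the latter turning to 0.08 relative to the median shift without normalization. MiR-141-3p (0.47, adjusted p = 0.181) and miR-200c-3p (-0.08), epithelial miRs at chr4:160840925-160841408, were the 2 of 5 members of the miR-200 family detected on all 6 arrays. The miR-183, miR-96 and miR-182 trio, sensory and endocrine cell miRs, held calls in both directions. MiR-96-5p rose from 8.23, 7.96 and 8.39 to 8.92, 8.85 and 8.93 (0.71, SE 0.15, adjusted p = 0.00912). MiR-182 fell from 7.50, 7.55 and 7.55 to 7.30, 7.36 and 7.37 (-0.19, SE 0.04, adjusted p = 0.00364). Neither overlapped between groups. MiR-183-5p had -0.08, and 0.16 relative to the median shift without normalization.

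**Figure D3:**
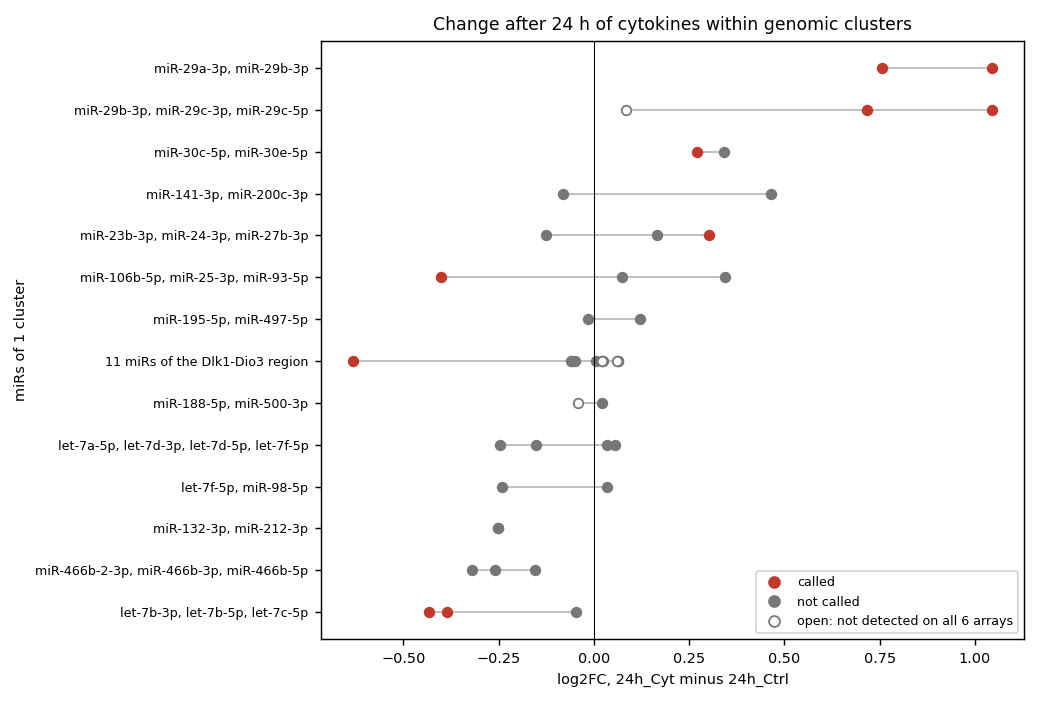
Log2 fold change (horizontal axis) of the miRs in 14 genomic clusters with at least 2 hairpins and 2 members detected throughout a group, ordered by their median. The clusters of miR-29a-3p and miR-29b-3p lie at the top, that of let-7b-5p and let-7c-5p at the bottom, and the cluster of miR-93-5p spans 0.

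MiR-497-5p and miR-195-5p at chr10:57073850-57074244 and miR-188-5p and miR-500-3p at chrX:27323568-27334678 had changes between -0.04 and 0.12. The 3 miR-466b arms at chr17:79288547-79291630 had -0.16, -0.26 and -0.32 with an SE of 0.40 to 0.42, and none was called. In the cluster at chr6:134388219-134425147, part of the imprinted Dlk1-Dio3 region, 25 hairpin positions gave 57 miRs, of which 11 were detected throughout a group. MiR-494-3p was the only called miR of this cluster, falling from 7.66, 7.75 and 7.67 to 6.92, 7.20 and 7.06 (-0.63, SE 0.12, adjusted p = 0.00523). Its groups were apart, and the other 10 detected miRs of the cluster lay between -0.06 (miR-299a-5p) and 0.06 (miR-758-3p and miR-299b-5p). The list of 36 Dlk1-Dio3 miRs had a median of -0.02, and 30 of them were detected on none of the 6 arrays. In this list miR-370-3p was called higher (0.14) at background level and miR-493-3p had 0.05.

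The 2 arms of a hairpin were compared where both were detected throughout a group, which held for 12 hairpins. In 4 of them 1 arm was called and the other was not. MiR-324-3p fell from 7.96, 7.87 and 7.79 to 7.47, 7.30 and 7.42 (-0.48, SE 0.10, adjusted p = 0.00832), without overlap, while miR-324-5p had -0.01 with overlapping groups. Let-7b-3p had -0.05, miR-29c-5p 0.08 and miR-1839-5p -0.04, beside a called change of their partners (-0.14, adjusted p = 0.0175, for miR-1839-3p). Of the 24 other arms of called miRs on the array, none was called, and the 20 that were not detected throughout a group lay between -0.10 and 0.05. MiR-129-5p, a brain and endocrine miR, had the largest decrease, from 8.75, 8.61 and 8.59 to 7.85, 7.61 and 7.80 (-0.89, SE 0.13, adjusted p = 0.000533). The lowest control array exceeded the highest cytokine array by 0.74 log2 units. The 3p arms that its 2 hairpins yield, miR-129-1-3p and miR-129-2-3p, both had 0.17 (adjusted p = 0.143 and 0.333). MiR-340-5p (0.40) and miR-652-5p (-0.56, adjusted p = 0.0762) also stood off from their partners, at -0.01 and -0.08, and did not pass the test.

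MiR-375-3p, the islet miR that restrains insulin secretion, had 10.17, 9.999 and 10.25 in 24h_Ctrl and 9.79, 9.78 and 9.93 in 24h_Cyt. The groups did not overlap, and the log2 fold change of -0.30 (SE 0.12) did not pass the test (adjusted p = 0.131). MiR-7a-5p, an endocrine miR of the islet, had 10.76, 10.81 and 10.95 against 11.13, 11.04 and 11.07, and miR-204-5p 6.55, 6.40 and 6.62 against 6.83, 6.73 and 6.74. Neither overlapped, and neither change (0.24, adjusted p = 0.271, and 0.25, adjusted p = 0.0637) passed. None of the 6 islet miRs was called. Their median was -0.02, and 0.24 over the 3 that were detected on all 6 arrays.

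Of 11 miRs listed as neuronal, many of which β-cells share, 2 were called higher and 1 lower (2.64% and 1.45% of all miRs). Beside miR-129-5p these were miR-153-3p, a regulator of vesicle exocytosis, which rose from 6.15, 5.99 and 6.26 to 6.65, 6.58 and 6.59 (0.47, SE 0.12, adjusted p = 0.0183), and miR-137-3p, at background level. The groups of miR-153-3p did not overlap. MiR-124-3p, the neuronal miR that targets Foxa2 in β-cells, had 0.25 (adjusted p = 0.209). MiR-192-5p and miR-194-5p, products of 1 cluster in epithelia, had 0.52 (adjusted p = 0.0716) and 0.31 (adjusted p = 0.130). MiR-148b-3p had 0.30 and miR-206-3p -0.16, neither called, and the 4 members of the miR-34 family, known as p53 targets, were detected on at most 1 of the 6 arrays, with values between -0.03 and 0.08. In the miR-181 family, the called decrease of miR-181d-5p (-0.16, adjusted p = 0.0108) was measured near background, on 2 arrays of each group, and none of the other 3 members was called.

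Called miRs outside these groups were miR-598-3p, miR-22-3p, miR-6216, miR-1839-3p, miR-203a-3p and miR-3584-5p. MiR-598-3p rose from 6.89, 6.68 and 6.83 to 7.50, 7.22 and 7.25 (0.52, SE 0.15, adjusted p = 0.0453). MiR-22-3p rose from 8.43, 8.29 and 8.51 to 8.81, 8.63 and 8.82 (0.34, SE 0.09, adjusted p = 0.0241), and miR-6216 fell from 6.58, 6.55 and 6.52 to 6.24, 6.21 and 6.24 (-0.32, SE 0.08, adjusted p = 0.0175). The groups did not overlap for any of these. MiR-3584-5p went from 5.83, 5.83 and 5.80 to 6.23, 6.20 and 6.17, at least 1.17-fold, and miR-203a-3p (0.27) was detected on 2 cytokine arrays and on no control array.

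Detection moved in 1 direction. All 132 miRs detected on the 3 24h_Ctrl arrays were so on the 3 24h_Cyt arrays, which had 168. In addition, 13 miRs were detected on all 3 cytokine arrays and on no control array, and none the other way. Among these 13 were the called miR-146a-5p, miR-101a-3p and miR-3584-5p, and the other 10, miR-186-5p, miR-291a-3p, miR-29c-5p, miR-3064-3p, miR-347, miR-3558-5p, miR-3596a, miR-487b-5p, miR-6324 and miR-758-5p, had log2 fold changes of 0.01 to 0.20 and were not called. The brighter arrays of 24h_Cyt move with these gains, and their part in them was not tested.

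The cytokine effect at 24 h was set against that at 6 h, measured in 6h_Cyt and 6h_Ctrl (n = 3 each) at the same doses, by the difference of the 2 effects. The 31 miRs, which were chosen for their change at 24 h, all had a smaller one at 6 h, and 4 of 758 miRs (0.528%) passed the test of the difference. MiR-146a-5p had 0.16 at 6 h, a difference of 0.43 (SE 0.05, adjusted p = 2.12e-05), and miR-3584-5p had -0.06 at 6 h, a difference of 0.44 (SE 0.07, adjusted p = 0.00368). Since neither was detected on a 24h_Ctrl array, these differences pass the test but do not measure the size of a change. The other 2, miR-762 and miR-877, with differences of 0.22 and 0.20, were detected on none of the 6 arrays, and no change is read from them. MiR-29b-3p had 0.09 at 6 h and 1.05 at 24 h, and miR-129-5p -0.09 and -0.89, with an adjusted p of 0.0696 for each difference. MiR-146b-5p had 0.44 at 6 h and 0.78 at 24 h (adjusted p of the difference 0.793). Of the 20 miRs called higher, 15 had a positive change at 6 h, and all 11 called lower had a negative one.

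The study's own list of 12 miRs for 24 h was examined as well, and since the study chose it on these samples the list is not independent evidence of a direction. Of these, 5 were called, all higher (miR-146a-5p, miR-3584-5p, miR-101a-3p, miR-96-5p and miR-29c-3p), beside 2.64% of all miRs called higher. The miRs of the list not called here had values of 0.40 (miR-340-5p), 0.39 (miR-384-5p), 0.20 (miR-455-5p), 0.18 (miR-140-5p), -0.22 (miR-7a-2-3p), -0.26 (miR-466b-2-3p) and -0.56 (miR-652-5p). Of miRs used as references for quantification, miR-103-3p had -0.19, let-7c-5p was called lower, and miR-423-3p (0.05) and miR-423-5p (0.02) were detected on none and on 1 of the 6 arrays.

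On background-subtracted signals scaled to the 75th percentile of detected miRs, all 31 called miRs kept their direction and 26 were called, among 69 calls in all. The quantile-normalized signals still hold background. The folds of some dim miRs were larger on the background-subtracted scale, which also differs in its scaling. With normexp correction before the quantile step, the 31 log2 fold changes had a median of 0.833 of their size. The part of subtraction in the larger folds was not tested. MiR-153-3p was 1.39-fold higher on the quantile-normalized scale and 2.28-fold on the background-subtracted scale. The 2 values were 1.71-fold and 2.29-fold for miR-146b-5p, and 0.645 and 0.483 of control for miR-494-3p. For the bright miR-29a-3p the folds were 1.69 and 1.67. On the background-subtracted scale the folds of miR-146b-5p and miR-153-3p exceeded that of miR-29b-3p (1.96). Over 121 miRs detected on all 6 arrays and with a sequence, the log2 fold change had a correlation of -0.292 with the GC content of the mature miR, across miRs read on the same 6 arrays. Correlations set against the 24h_Ctrl mean share that reference, so they cannot show in which arrays the trend arose. Set against the 24h_Ctrl mean over 151 miRs, the 24h_Cyt arrays had correlations of -0.255, -0.226 and -0.211. The 6h_Ctrl arrays, without cytokines, had -0.151, -0.239 and -0.344, and the 24h_Giv_Ctrl arrays, also without, 0.0342, -0.296 and -0.218. Against the mean of all 24 arrays, the 24h_Ctrl arrays had 0.144, 0.238 and 0.229 and the 24h_Cyt arrays -0.203, -0.174 and -0.138. On that reference the 6h_Ctrl arrays had 0.0148, -0.0721 and -0.173 and the 24h_Giv_Ctrl arrays 0.28, -0.122 and -0.0833. The cause was not tested.

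**Figure D4:**
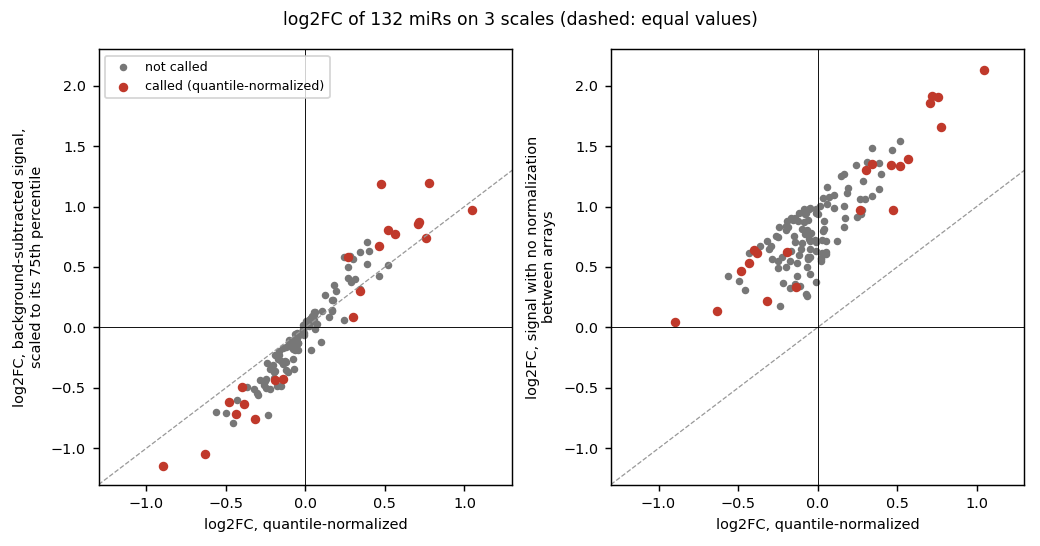
Log2 fold change of the 132 miRs detected on all 6 arrays on the quantile-normalized scale (horizontal axes) against that on background-subtracted signals (left) and on signals with no normalization between arrays (right), with the 21 called miRs in red and dashed lines of equal values. On the left the called miRs keep their side of 0, and on the right all 132 values are positive, with a median of 0.80.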

How the data were processed

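Total RNA enriched for miRs from INS1 cells was hybridised, per the labels with Cy3, to single-colour Agilent rat miR arrays, and the 24 scanner files were used (3 arrays per group). The deposited intensities came from Agilent Feature Extraction, version 9.1 in the submitters' processing notes and 10.7.3.1 per the file headers. The authors quantile-normalized the median spot intensity without background subtraction. Their deposited table of log2 values equalled the median over a miR's 16 spots of the log2 of quantile-normalized spot medians computed from the scanner files (largest difference 4.94e-09), so its scale is known, its columns are not centred (medians 5.52 to 5.54) and it holds single arrays, not ratios.

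From the scanner files the 12128 miR spots per array were quantile-normalized over 24 arrays, put on a log2 scale and averaged over the 16 spots of a miR, in place of the authors' pooled correlation over spots, which is an alternative. No spot was saturated. Groups were compared with lmFit and eBayes of limma 3.58.1 (R 4.3.3, 8 groups, 16 residual degrees of freedom), with Benjamini-Hochberg adjustment over 758 miRs. A miR was called at an adjusted p below 0.05 and a log2 change above 0.1375, the log2 of 1.1. Folds are 2 to the power of the log2 fold change, and none is given for a miR not detected (well above background on 8 or more of 16 spots) in both groups except as a bound. Background-subtracted signals are the scanner's processed signals, floored at 4.44 (the SD of negative controls) and scaled. The number of arrays limits the precision.

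The deviations from the group means over 168 miRs were correlated between the 24h_Cyt and 24h_Ctrl arrays of the same replicate number (r = 0.622, 0.733 and 0.34 for numbers 1, 2 and 3). Arrays of different numbers were not set beside these values, so a pairing by number is not shown, and the labels give none. MiRs named by rule are those called, their other arms, the highest and lowest of each list, seed group or cluster, the 5 brightest in control, the study's 24 h and reference miRs, and those detected in 1 group only. Further members of the lists, seed groups, clusters and hairpins are named outside that rule, such as let-7e-5p, miR-155-5p and miR-124-3p. Members and lists were chosen with earlier results of these data known. Simulated data with the real means had 96.7% of 92 miRs changed by 0.5 log2 units called and 4 of 558 unchanged miRs. The simulated noise was independent between arrays, with no effect of slide or brightness, and the changed miRs were drawn from all 758. The median SE was 0.028 over these 758 and 0.125 in the fit of the 168 miRs detected throughout a group. The simulated rates therefore do not carry over to detected miRs or to slide effects. Alternatives covered the signal, its background correction and scaling, slide, array brightness, GC content, pairing and each array left out.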

Additional observations from a re-analysis of the deposited data

Results flagged for a closer look

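Limma's test of the difference between the cytokine effects at 24 h and 6 h was passed by 4 of 758 miRs. The difference of log2 signals was 0.44 (miR-3584-5p), 0.43 (miR-146a-5p), 0.22 (miR-762) and 0.20 (miR-877). The former pair was detected on the 3 24h_Cyt arrays and on no 24h_Ctrl array, and the latter pair on none of the 6 arrays, so that the values give no size of a change and, for the latter pair, no change can be read.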

How the results depend on the processing

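The 31 calls at 24 h were 25 to 31 with spot medians, the mean foreground, normexp correction, the deposited table, slide as a random block or a replicate block in the fit of 8 groups (30). They were 48 with a pooled correlation over spots (20 shared), 69, 10 and 50 with 3 scalings of background-subtracted or total gene signal (75th percentile of detected miRs, of all miRs, and total gene signal, whose variances limma reported as unreliable), 173 without normalization, 675 with arrays centred on detected miRs, 1 with slide as a fixed block, 3 without slide 1 and 3 with array brightness as a covariate. The brightness, GC and 6-array pairing settings were chosen after seeing the data. The 6 arrays fitted alone gave 45 calls, and 83 with the replicate block. Removing a GC trend gave 28 of 151. Leaving out 1 array gave 14 to 44 calls. The calls were 20 and 14 without 24h_Ctrl replicates 1 and 2, and 17 and 16 without 24h_Cyt replicates 1 and 2. No other call on the difference between time points changed with the replicate block (4 calls). Its 4 calls were 21, 51, 8, 601, 9, 1 and 2 with a pooled correlation, without normalization, with processed signals scaled on detected miRs, centring, total gene signal, slide as a fixed block and brightness, 3 without slide 1, and 4 to 6 with 1 array left out. The cause of these shifts was not tested.

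Without normalization the called log2 fold changes of let-7b-5p (0.53), let-7c-5p (0.62), miR-129-5p (0.045), miR-181d-5p (0.18), miR-182 (0.62), miR-1839-3p (0.33), miR-324-3p (0.47), miR-494-3p (0.14), miR-6216 (0.22) and miR-93-5p (0.64) turned positive. So did the negative values of miRs not called, let-7a-5p (0.76), let-7b-3p (0.44), let-7d-5p (0.74), miR-98-5p (0.83), miR-103-3p (0.83), miR-107-3p (0.91), miR-125a-5p (0.98), miR-132-3p (0.55), miR-212-3p (0.49), miR-1839-5p (0.40), miR-188-5p (0.44), miR-200c-3p (0.77), miR-24-3p (0.88), miR-299a-5p (0.58), miR-324-5p (0.98), miR-375-3p (0.65), miR-497-5p (0.72) and miR-7a-2-3p (0.58).

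With arrays centred on the detected miRs, which puts dim miRs lower on brighter arrays by construction, miR-137-3p (-0.63), miR-146a-5p (-0.088), miR-203a-3p (-0.45), miR-3584-5p (-0.15), miR-370-3p (-0.69), miR-762 (-0.57) and miR-877 (-0.70) turned negative, as did miR-140-5p (-0.47), miR-23a-3p (-0.51), miR-299b-5p (-0.44), miR-29c-5p (-0.50), miR-423-3p (-0.87), miR-423-5p (-0.72), miR-455-5p (-0.44), miR-493-3p (-0.45), miR-500-3p (-0.39), miR-511-5p (-0.41) and miR-532-5p (-0.49) and the time differences of miR-146a-5p (-0.083), miR-762 (-0.38) and miR-877 (-0.52). With array brightness as a covariate the called miR-21-5p (-0.049) and miR-137-3p (-0.0014) changed sign, as did 25 of the other named miRs, among them miR-101b-3p (-0.08), miR-148b-3p (-0.12), miR-192-5p (-0.16), miR-129-1-3p (-0.05), miR-129-2-3p (-0.06) and let-7b-3p (0.09). The fixed slide block turned the sign of 8 named miRs, none of them called. On total gene signal no called miR changed sign and 2 had a value of 0. Signals of 547 miRs were not detected on any of the 6 arrays, where a change cannot be read.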
